A study of Mus musculus with 4 samples.

Results

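Ikzf1 and Ikzf3 encode Ikaros and Aiolos, and the open chromatin around both genes was described in 2 kinds of mouse dendritic cells. All peak intervals and footprints that overlapped either of 2 fixed mm9 windows on chromosome 11 were taken, from 11480000 to 11750000 for Ikzf1 and from 98280000 to 98460000 for Ikzf3. Once the intervals of both cell types were merged, the windows held 50 of the 93615 open regions of the data, 36 at Ikzf1 and 14 at Ikzf3. The cDC1 list contributed 44 of its 83701 intervals and 224 of its 513689 footprints. The pDC list contributed 26 of its 51941 intervals and 178 of its 312959 footprints.

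The cells were made from mouse bone marrow, expanded with cytokines and differentiated with Flt3 ligand, and then sorted as cDC1 (CD11c+ CD11b+ XCR1+, labelled as classical dendritic cells) or pDC (CD11c+ CD11b- B220+). Omni-ATAC-seq, in which the transposase Tn5 cuts accessible DNA, was run on 2 samples of each type. No allele, strain, age or agent beyond the culture cytokines is given in the sources used here. The replicates were merged by the authors before peaks and footprints were listed, so each type has 1 list of either kind, replicate error is unknown and no p-value was computed. The sorted identity was not checked against marker loci, because an mm9 annotation was not used here. For the same reason no region was placed in an exon, an intron or a promoter.

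Ikaros family proteins are zinc finger transcription factors that bind DNA as dimers and can both repress and activate genes. Ikaros is needed for the development of lymphocytes and of pDC, and Aiolos is best known from the maturation of B cells. Both genes are large, and regulatory elements of such genes can lie within the gene or in the flanks. In the gene order of RefSeq (GRCm38.p6), the protein-coding genes beside Ikzf1 are 4930512M02Rik and Fignl1, and those beside Ikzf3 are Grb7, an adaptor protein gene, and Zpbp2. A region of a window may therefore belong to a neighbour.

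RefSeq gives 2 promoters for Ikzf1, each 300 bases around a transcription start, and they are shown because they differ strongly in base composition; Ikzf3 had no entry. The first lies at chr11:11685675-11685974 and the second at chr11:11689927-11690226, both on the plus strand of GRCm38.p6. These positions belong to another build than the peaks and were not placed on the regions below. Capitals mark the CG dinucleotides, the sites of DNA methylation that cluster in CpG islands.
Ikzf1 promoter 1: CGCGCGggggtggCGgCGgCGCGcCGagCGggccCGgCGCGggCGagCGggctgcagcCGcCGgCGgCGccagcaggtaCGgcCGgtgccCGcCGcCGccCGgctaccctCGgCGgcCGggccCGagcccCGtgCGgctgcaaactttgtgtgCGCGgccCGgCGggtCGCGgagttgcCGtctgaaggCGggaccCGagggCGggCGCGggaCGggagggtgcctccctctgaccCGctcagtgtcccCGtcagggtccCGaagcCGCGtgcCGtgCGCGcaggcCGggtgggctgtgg
Ikzf1 promoter 2: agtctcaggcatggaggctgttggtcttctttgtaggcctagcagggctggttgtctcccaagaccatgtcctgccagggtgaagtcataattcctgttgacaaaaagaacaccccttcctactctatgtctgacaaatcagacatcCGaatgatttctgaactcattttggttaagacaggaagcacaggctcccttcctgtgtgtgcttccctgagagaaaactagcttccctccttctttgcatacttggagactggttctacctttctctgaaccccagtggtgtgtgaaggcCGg
Promoter 1 held 52 CG dinucleotides, more than 99.4% of the RefSeq promoters of mouse genes, and 81.3% of its bases were G or C. Promoter 2 held 2, against a median of 7 over all promoters, and 49% of its bases were G or C. The Ikaros core letters TGGGAA, searched on both strands, were found in neither promoter and in 25.6% of all 32851 promoters. The letters GAGGAA, a PU box bound by Ets factors such as PU.1, were also found in neither, against 28.3% of all promoters.

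The Ikzf1 window was densely open in both cell types. It held 33 cDC1 intervals, or 12.2 per 100 kb, against 5.26 per 100 kb over chromosome 11. The 16 pDC intervals came to 5.93 per 100 kb, against 3.51. Open bases made up 5.77% of the window in cDC1 and 3.70% in pDC, while the shares over chromosome 11 were 2.84% and 1.83%. Open bases thus exceeded the chromosome share by a similar factor in both types, while intervals exceeded it more in cDC1. The open regions formed a group with empty flanks. The first began 69.6 kb after the start of the window, the last ended 28.9 kb before its end, and the largest gap in between was 13.2 kb. No other listed region lay within 75.4 kb before the first or 59.1 kb after the last.

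In the Ikzf3 window the counts of the cell types, not adjusted for the lengths of their lists, lay closer together. It held 11 intervals in cDC1, or 6.11 per 100 kb, and 10 in pDC, or 5.56 per 100 kb, against the same chromosome values of 5.26 and 3.51. Open bases made up 3.44% of it in cDC1 and 3.01% in pDC, against 2.84% and 1.83% over chromosome 11. By both measures the excess over the chromosome was larger in pDC. The regions of this window were spread more widely, and a stretch of 48.0 kb without any region lay between 98359002 and 98407010. The last region ended 0.931 kb before the end of the window, and the next region beyond it followed 6.27 kb later, so the window does not end in closed chromatin.

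**Figure D1:**
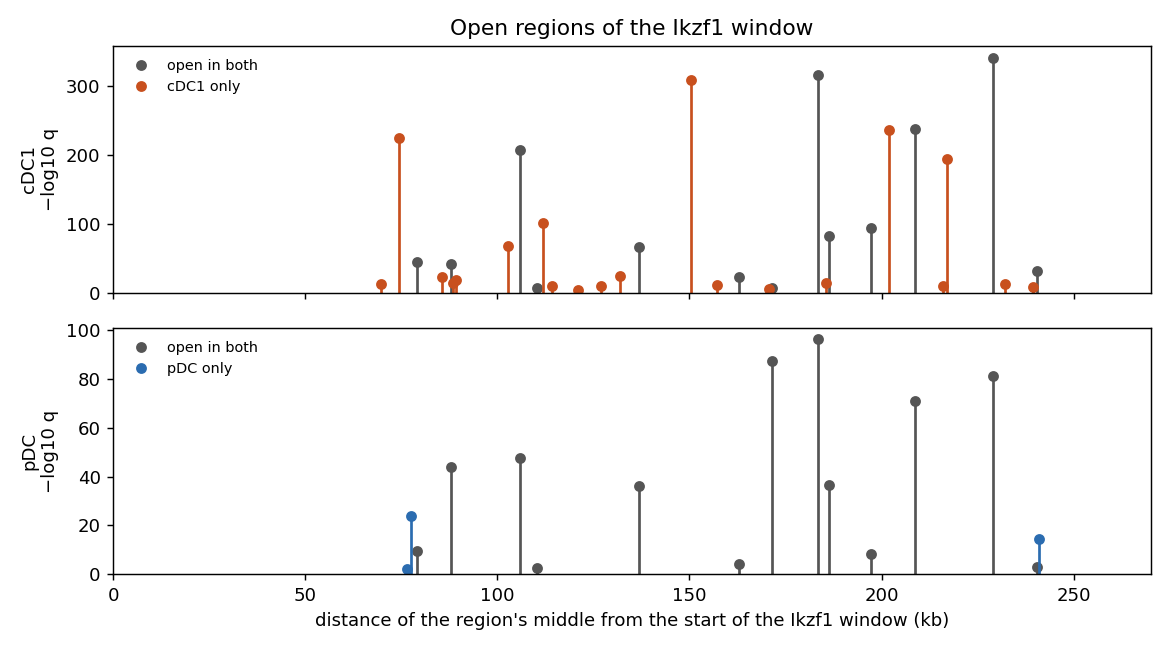
Each stem is an open region of the Ikzf1 window, placed by the distance of its middle from the window start (x axis, kb), with the −log10 q of its interval (y axis) in cDC1 above and in pDC below. Grey regions are open in both cell types, orange ones in cDC1 only and blue ones in pDC only; 3 of the tallest cDC1 stems are orange, while the pDC-only stems stay at 23.8 or less.

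Most pDC intervals of both windows were also open in cDC1. An interval counted as shared if it overlapped one of the other list by at least 1 bp, and bounds given with shares are 95% Wilson intervals that cover counting error only. At Ikzf1, 13 of 16 pDC intervals were shared (81.3%, 57.0 to 93.4%) and 3 were found in pDC only, where 19.7% of the whole pDC list was. At Ikzf3, 7 of 10 were shared (70.0%, 39.7 to 89.2%) and 3 were not. Of the cDC1 intervals of Ikzf1, 20 of 33 were found in cDC1 only (60.6%), against 50.9% of the whole cDC1 list. At Ikzf3 these were 4 of 11 (36.4%). The Wilson interval of each of these 4 shares of shared intervals held the share of its whole list, so these counts lay near the background. The pDC library gave fewer tags, and the part of its depth in the count of cDC1-only intervals was not tested. When the cDC1 list was limited to its strongest intervals, as many as pDC had, 55.0% of the remaining cDC1 intervals of Ikzf1 and 85.7% of those of Ikzf3 were shared, against 65.5% of that limited list.

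Strong intervals were also counted on their own. The limits of the −log10 q were chosen after the values were seen, so these counts describe the windows and test nothing. Above 200, 692 of 11291 cDC1 intervals of the whole list (6.13%) were found in cDC1 only. At Ikzf1 these were 3 of 7, and at Ikzf3 none of 4. Above 50, 661 of 9110 pDC intervals (7.26%) were found in pDC only, and the windows held none of 4 at Ikzf1 and 1 of 4 at Ikzf3. With so few intervals, the bounds were wide, and 57.1% of the strong cDC1 intervals of Ikzf1 were shared with bounds of 25.1 to 84.2%.

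The strongest region found in cDC1 only was Ikzf1 region 19 at chr11:11629990-11630571. Regions are numbered along each window. It had a −log10 q of 307.6 and a fold enrichment of 13.2 over the MACS2 background, and 170 cDC1-only intervals of the genome had a larger −log10 q. It held 3 footprints, short stretches protected from Tn5 inside open DNA, with tag counts of 96, 897 and 986. Divided by the ratio between the 2 libraries explained below, the count of 986 would be 303 in pDC, more than the highest tag count of 87.9% of the listed pDC intervals. No pDC interval was listed there.

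Ikzf1 region 28 at chr11:11681634-11682210 came next, with a −log10 q of 235.8, 9 footprints and a highest tag count of 932. It was followed by Ikzf1 region 2 at chr11:11554175-11554645, with a −log10 q of 224.5, a fold enrichment of 11.3, and 3 footprints of up to 889 tags. At the pDC scale their highest counts would be 286 and 273, above those of 86.4% and 84.9% of the pDC intervals. The remaining regions found in cDC1 only were weaker, and 14 of the 20 had a −log10 q under 25. Their median was 14.2, close to the 13.5 of all cDC1-only intervals, while the shared cDC1 intervals of Ikzf1 had a median of 66.1. Among the 20, 1 held no footprint, and the 20 held 79 of the 166 cDC1 footprints of the window.

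The 3 regions found in pDC only at Ikzf1 were all weak or moderate. Ikzf1 region 4 at chr11:11557113-11558014 had a −log10 q of 23.8 and 10 footprints with up to 163 tags. Ikzf1 region 36 at chr11:11720766-11721123 had a −log10 q of 14.6 and 6 footprints with up to 104 tags. Ikzf1 region 3 at chr11:11556421-11556682 was the weakest, with a −log10 q of 2.14 and 5 footprints with up to 83 tags. These regions lay beside regions of cDC1. Region 3 began 1775 bp after the cDC1-only region 2 and ended 430 bp before region 4, which was followed after 743 bp by region 5, open in both. Region 36 lay 180 bp after region 35, also open in both. Thus over a few kilobases a strong cDC1-only region, a pair of pDC-only regions and a shared region were listed in a row.

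**Figure D2:**
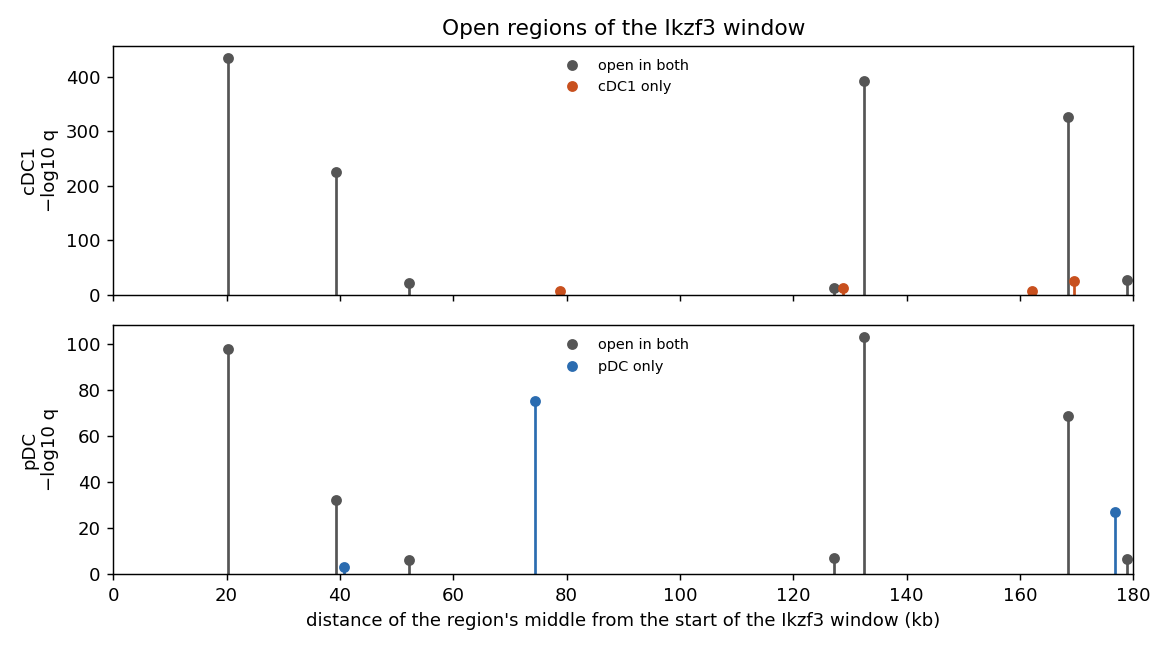
Open regions of the Ikzf3 window by the distance of their middle from the window start (x axis, kb), with the −log10 q (y axis) in cDC1 above and in pDC below, coloured as open in both (grey), cDC1 only (orange) or pDC only (blue). The 4 tallest cDC1 stems are grey, and a blue stem of 75.2 in pDC has no partner in cDC1.

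At Ikzf3 the strongest region of a single cell type was open in pDC. Ikzf3 region 5 at chr11:98354031-98354732 had a −log10 q of 75.2 and a fold enrichment of 10.4, and 238 pDC-only intervals of the genome had a larger −log10 q. Its 9 footprints had tag counts from 55 to 229. At the scale of the cDC1 library the highest count would be 746, more than that of 85.2% of the listed cDC1 intervals, yet no cDC1 interval was listed there. The nearest one, Ikzf3 region 6 at chr11:98358717-98359002, began 3984 bp further on and had a −log10 q of only 7.83.

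The other pDC-only regions of Ikzf3 were weaker. Ikzf3 region 13 at chr11:98456531-98457137 had a −log10 q of 26.8, 6 footprints and up to 160 tags, and Ikzf3 region 3 at chr11:98320552-98320843 had a −log10 q of 3.21, 5 footprints and up to 67 tags. None of the 4 cDC1-only regions was strong. Ikzf3 region 12 at chr11:98449410-98449816 had a −log10 q of 25.5 and 6 footprints with up to 259 tags. The values of the other 3, among them Ikzf3 region 8 at chr11:98408657-98408907, ran from 7.31 to 12.1. The contrast with Ikzf1, where the strong regions of a single cell type were those of cDC1, was not tested.

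The strongest regions of both windows were otherwise open in both cell types. At Ikzf1, region 32 at chr11:11708646-11709585 had the largest −log10 q in cDC1 (340.6, and 81.3 in pDC). Ikzf1 region 24 at chr11:11663029-11663826 had the largest in pDC (96.3, and 316.1 in cDC1). At Ikzf3, region 1 at chr11:98299847-98300593 was the strongest in cDC1 (434.3, above 97.1% of that list), and it reached 97.9 in pDC. Ikzf3 region 9 at chr11:98412087-98412930 was the strongest in pDC (102.9, above 95.1% of that list) and had 391.6 in cDC1. Ikzf3 region 11 at chr11:98448112-98448862 followed with 325.6 and 68.8. A −log10 q grows with library depth, so these values order intervals within a list and are no measure of a difference between the lists.

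Ikzf1 region 11 at chr11:11585279-11586594 had the most footprints of its window in both cell types, 13 in cDC1 and 15 in pDC, although its −log10 q of 206.9 and 47.5 was not among the 3 largest of either list. Its pDC interval of 1316 bp was also the widest of that window. At Ikzf3, region 2 at chr11:98318591-98319873 held the most in cDC1 (13, and 6 in pDC), and regions 5 and 9 the most in pDC (9 each). The cDC1 and pDC summits of a shared region lay at a median distance of 51 bp over the 13 of Ikzf1, wider than the 30 bp over all 40721 shared regions, and of 12 bp over the 7 of Ikzf3. Summits at most 50 bp apart were found in 6 of 13 and 5 of 7, against 70.1% of all. In Ikzf1 region 29 they lay 1 bp apart.

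Footprints were compared by a stricter rule than intervals. A footprint counted as shared if at least 50% of its bases were covered by footprints of the other list. At Ikzf1, 41 of 166 cDC1 footprints were shared (24.7%, 18.8 to 31.8%), against 28.6% of the whole list, and 40 of 115 pDC footprints (34.8%, 26.7 to 43.9%), against 44.4%. At Ikzf3 these were 28 of 58 in cDC1 (48.3%, 35.9 to 60.8%) and 24 of 63 in pDC (38.1%, 27.1 to 50.4%). The bounds of the pDC share of Ikzf1 and of the cDC1 share of Ikzf3 did not include the background, but neighbouring footprints are not independent and the bounds are too narrow to read as a test. Within intervals open in both cell types, the shares were 47.1% in cDC1 and 42.6% in pDC at Ikzf1, and 63.6% and 55.8% at Ikzf3, against 47.9% and 52.7% of all such footprints.

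To compare accessibility itself, footprints found in both cell types were paired 1 to 1, where each shared at least 50% of its bases with the other, and the pair with the most tags stood for its region. The deposited tag counts are not scaled for depth, and the mean was 362 in cDC1 and 142 in pDC. Each cDC1 to pDC ratio was therefore divided by 3.26, the median over all 31914 paired regions of the genome, and a region was called at 2-fold or more. This scale is not the ratio of depths alone. By the study's read totals, the ratio of cDC1 to pDC was 1.75 for all reads and 3.72 for reads in peaks. Over the genome 9.05% of paired regions were called higher in cDC1 and 12.4% higher in pDC. Bounds given with log2 ratios are exact 95% intervals for counting error only.

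At Ikzf1, 9 of the 13 shared regions had a pair, and 7 of these lay below 0, on the pDC side. The median log2 ratio was −0.33, with a range from −3.23 to 0.29, while the middle of all paired regions spanned −0.50 to 0.40 between the quartiles. The call was reached by 3 regions, all higher in pDC. At Ikzf3, 4 of 7 shared regions had a pair. Their log2 ratios lay between −0.48 and 0.61, with a median of 0.08, and none was called. These medians depend on the scale, and a scale by all reads of the libraries moved them to 0.57 and 0.98. With that scale 2 regions of Ikzf1 and 2 of Ikzf3 were called higher in cDC1. The calls towards pDC at Ikzf1 fell from 3 to 1. That scale moves all paired regions of the genome towards cDC1 alike, and the share of them then called was not computed. The genome-wide shares of calls given above do not apply to it, so these counts cannot be set against a background.

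**Figure D3:**
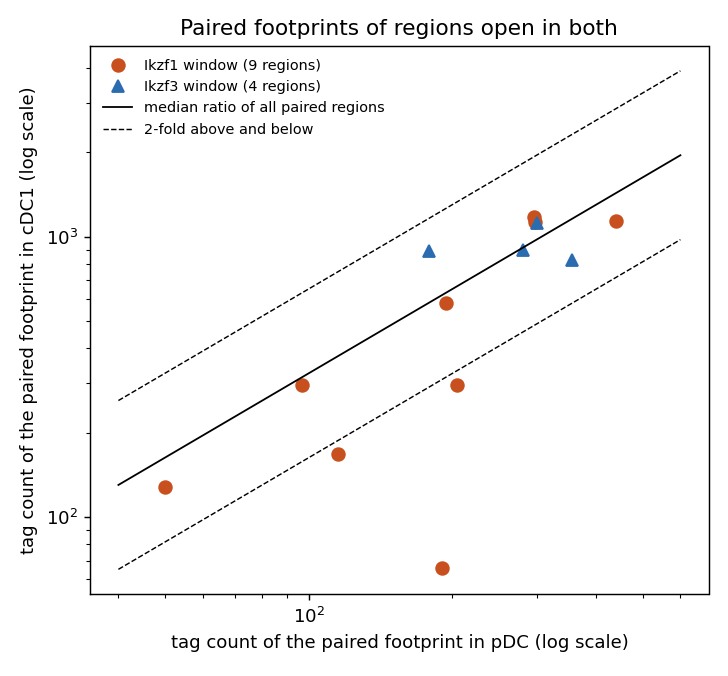
Tag counts of the paired footprint of each region open in both cell types, in pDC (x axis, log scale) and cDC1 (y axis, log scale), for 9 regions of Ikzf1 (circles) and 4 of Ikzf3 (triangles). The solid line marks the genome-wide median ratio and the dashed lines lie 2-fold above and below; the circle far below the lines is Ikzf1 region 23, with 66 tags in cDC1 and 190 in pDC.

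Ikzf1 region 23 at chr11:11650981-11651941 had the largest difference among the paired regions of the windows, which leave out regions listed in a single cell type. Its paired footprint had 66 tags in cDC1 and 190 in pDC, whereas in the other paired regions of both windows cDC1 had the larger count. The scaled ratio was 9.38-fold higher in pDC (log2 −3.23, −3.66 to −2.82), and only 134 of the 31914 paired regions had a lower ratio. The other values of the region pointed the same way. The pDC interval was 961 bp wide, with a −log10 q of 87.6, a fold enrichment of 7.97 and 10 footprints of 89 to 355 tags. The cDC1 interval inside it was 206 bp wide, with a −log10 q of 6.39, a fold enrichment of 2.56 and a single footprint. Its scaled log2 ratio of fold enrichments was −2.17, lower than in all but 0.391% of shared regions, and by the highest tag count in each list the log2 ratio was −4.12. The 272 bp before it separated it from Ikzf1 region 22, a weak cDC1-only region with a −log10 q of 4.48.

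The other called regions of Ikzf1 were smaller in effect. Ikzf1 region 18 at chr11:11616583-11617142 had 295 tags in cDC1 and 204 in pDC, or 2.25-fold higher in pDC (log2 −1.17, −1.43 to −0.91). Its fold enrichment of 6.41 in cDC1 and 5.58 in pDC gave a scaled log2 ratio of −0.33, so the 2 measures differed in size. Ikzf1 region 27 at chr11:11676762-11677684 had 168 and 115 tags, or 2.23-fold higher in pDC (log2 −1.16, −1.51 to −0.80). The calls of regions 18, 23 and 27 each rested on 1 pair. That of region 27 also turned with the measure: the highest tag counts were 613 and 119, a log2 ratio of 0.67 towards cDC1, and the fold enrichments of 5.68 and 2.84 gave 0.47. With the scale of all reads, regions 18 and 27 were no longer called, at −0.27 and −0.26, while region 23 stayed at −2.33.

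Other strong shared regions of both windows stayed within 2-fold of the genome-wide median. Ikzf1 region 24 had 1141 and 439 tags (log2 −0.33, −0.49 to −0.16), and region 32 had 1132 and 298 (0.22, 0.04 to 0.41). Ikzf1 region 11 had 1179 and 297 tags (0.29, 0.10 to 0.47), the highest ratio of the window. At Ikzf3, region 1 had 894 and 281 tags (−0.03, −0.23 to 0.17), region 9 had 830 and 356 (−0.48, −0.66 to −0.30), and region 11 had 1119 and 301 (0.19, 0.01 to 0.38). Ikzf3 region 2 had the highest ratio of either window, with 890 and 179 tags (0.61, 0.38 to 0.85), which lay above the upper quartile of all paired regions and did not reach 2-fold. The pairs within a region could differ. The 6 pairs of Ikzf1 region 11 ran from −0.04 to 0.29, while the 6 of Ikzf3 region 9 ran from −0.77 to 0.02.

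The remaining shared regions with a pair stayed within 2-fold. Ikzf1 region 29 at chr11:11688453-11689118 had 579 and 194 tags (−0.13, −0.36 to 0.12), Ikzf1 region 5 at chr11:11558758-11559267 had 296 and 97 (−0.09, −0.43 to 0.25), and Ikzf1 region 35 at chr11:11720145-11720585 had 128 and 50 (−0.35, −0.83 to 0.15). The bounds of these 3 regions all held 0, which stands for the genome-wide median ratio. They cover counting error only, move with the scale and are no test of a difference.

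Footprints of both windows had higher tag counts than their lists. The median was 304 tags at Ikzf1 and 538 at Ikzf3 in cDC1, against 212 over the cDC1 list, and 143 and 162 in pDC, against 100. An interval held 5.03 footprints on average at Ikzf1 and 5.27 at Ikzf3 in cDC1, against 6.14 over the list, and 7.19 and 6.30 in pDC, against 6.03. The pDC intervals were also wide, with medians of 607 bp at Ikzf1 and 623 bp at Ikzf3 against 423 bp, whereas those of cDC1 (416 and 431 bp) were near the median of 432 bp. The median −log10 q in pDC was 29.9 and 29.5, against 13.5, and in cDC1 23.6 and 25.5, against 30.4.

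The detail of the footprints showed how differently the regions were resolved. In Ikzf1 region 24, all 6 pDC footprints but only 2 of the 7 cDC1 footprints were shared, and the tag counts of the latter 7 ran from 552 to 1141. In Ikzf1 region 23, 1 of the 10 pDC footprints was shared, the one at 190 tags. No pair was found in 4 of the 13 shared regions of Ikzf1 and in 3 of the 7 of Ikzf3. Over the genome there were 40721 shared regions, and 31914 regions had a pair. Ikzf1 region 26 at chr11:11666138-11666545 had no pDC footprint at all despite a −log10 q of 36.4 in pDC and 82.0 in cDC1. The 3 regions named next had no pair, reached 2-fold by their highest tag counts, all towards pDC, and were picked after their values were seen. The share of all shared regions that reach 2-fold by this measure was not computed. Without a pair, the counts of the cell types can come from different sites of a region. Ikzf1 region 7 at chr11:11567285-11568311 had 306 tags in cDC1 and 218 in pDC (log2 −1.20), Ikzf1 region 12 at chr11:11590047-11590457 had 205 and 136 (−1.10), and Ikzf3 region 7 at chr11:98407010-98407449 had 118 and 77 (−1.08).

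**Figure D4:**
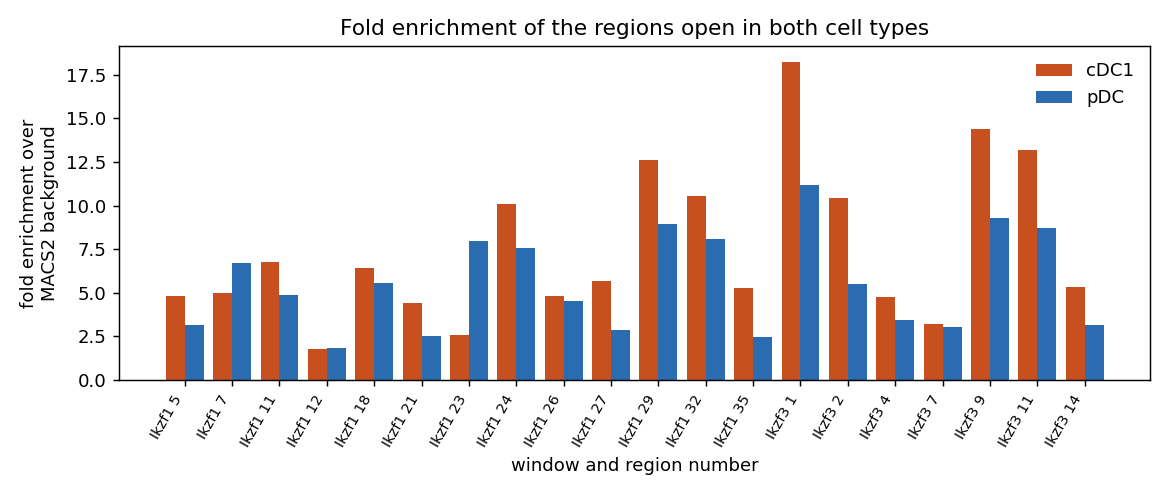
Fold enrichment over the MACS2 background (y axis) of the 20 regions open in both cell types, 13 at Ikzf1 and 7 at Ikzf3 (x axis, in order of position), in cDC1 (orange) and pDC (blue). The values are as deposited and not scaled; the pDC bar is clearly the taller in Ikzf1 regions 23 and 7.

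The fold enrichment gave a view that did not depend on footprints. As listed it was higher in cDC1 in 10 of the 13 shared regions of Ikzf1 and in all 7 of Ikzf3. The share of all shared regions that were higher in cDC1 as listed was not computed. After division by 1.45, the median ratio of fold enrichments over all shared regions, it was higher in pDC in 9 of 13 and in 2 of 7. By construction, this division splits all shared regions evenly between the cell types. The median scaled log2 ratio was −0.12 at Ikzf1, with a range from −2.17 to 0.56, and 0.10 at Ikzf3, with a range from −0.47 to 0.39. Away from region 23, the largest excess in pDC was that of Ikzf1 region 7, with fold enrichments of 4.97 in cDC1 and 6.68 in pDC (log2 −0.96).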

How the data were processed

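Sorted cDC1 and pDC were profiled by Omni-ATAC-seq in 2 samples each. The study's methods state that the authors used Trim Galore for trimming, Bowtie2 for alignment to mm9, samtools for the removal of duplicates and poorly aligned reads, MACS2 for peaks and HINT-ATAC for footprints on merged replicates. Tool versions: not given in the sources used here. Chromosome lengths were compared, and on 8 of 21 chromosomes some positions exceed GRCm38, so mm9 was assumed. Of the values the authors deposited, the fold enrichment is a ratio to background, the −log10 q belongs to a summit and the score repeats it. The deposited footprint values were read as tag counts, whole numbers not scaled for depth, whose counting window is unknown. Library depth is not in these files. The methods describe a filter on the q-value, but the deposited lists hold −log10 q down to 1.30, and all intervals were used; a limit of 10 in both lists was an alternative.

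Summits of 1 interval were joined, keeping the largest −log10 q. Overlaps, pairs and ratios came from scripts in Python 3.11.15 with scipy 1.17.1, pandas 2.3.3 and numpy 2.4.6, which were tested on simulated data. The windows, the lists and the regions named were chosen with earlier results of these data known. Named were, per window, the 3 regions with the largest −log10 q in each list, every pDC-only region, the 3 strongest cDC1-only regions, every region at least 2-fold higher in one cell type and the region with the most footprints; others are said to be chosen later or serve as neighbours. Reads carry no molecular identifiers, so intervals cover counting error only. Alternatives changed the overlap, the limit on the −log10 q, the list length, the scale and the choice of footprint, and the scales by reads took the read totals of the study's supplement. Whether replicates came from separate cultures is not stated.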

Additional observations from a re-analysis of the deposited data

How the results depend on the processing

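Under the alternatives, 45 values that answer a comparison were labelled as kept and 13 as moved. A kept share was not an equal share: it lay inside the Wilson interval of the reported one, and those intervals were wide. The share of cDC1 intervals of Ikzf1 (39.4%) thus counted as kept at 28.0% and at 55.0%. The share of pDC footprints of Ikzf1 rose to 44.4% (from 34.8%) when 1 bp counted as shared, against 51.9% of the whole pDC list by that rule. The share of cDC1 intervals of Ikzf3 rose to 85.7% (from 63.6%) when the cDC1 list was limited to the length of the pDC list, against 65.5% of the limited list. Once intervals under a −log10 q of 10 were dropped from both lists, 28.0% and 44.4% of cDC1 intervals (39.8% of the limited list) and 70.0% and 66.7% of pDC intervals (81.5%) were shared at Ikzf1 and Ikzf3. Among strong intervals, limits chosen after seeing the data, 57.1% of cDC1 and 100% of pDC intervals of Ikzf1 and 100% of cDC1 intervals of Ikzf3 were shared. Sharing with a single footprint, also added after seeing the data, gave 22.9% and 46.6% in cDC1 and 30.4% and 33.3% in pDC at Ikzf1 and Ikzf3. The whole lists gave 26.9% in cDC1 and 40.7% in pDC by this rule. Scaling moved the ratios. With the ratio of reads in peaks, the median log2 ratio was −0.52 at Ikzf1 and −0.11 at Ikzf3. With the ratio of all reads it was 0.57 and 0.98. Then 2-fold or more was reached towards cDC1 by 2 regions of Ikzf1 and 2 of Ikzf3. Towards pDC it was reached by 1 region of Ikzf1. The share of all paired regions that reach 2-fold with the ratio of all reads was not computed, so these counts have no background. With the highest tag count of a region, 1 region of Ikzf3 was called higher in pDC, and Ikzf1 region 27 reversed to 0.67. The scale itself shifts every ratio alike. No paired analysis was possible because the replicates were merged into 1 list per cell type, which also left no replicate to leave out. Counts were lower in pDC, where the first quartile of the highest tag count of an interval was 66, against 114 in cDC1.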
